A study of Mus musculus with 2 samples.

Results

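The extracellular matrix genes of mouse oviduct epithelium were followed through 66 genes, out of 26897 genes listed in both an adult and a P4 table of single-cell counts. They were chosen by symbol: every collagen chain gene, every laminin chain gene, and Fn1, Sparc, Nid1, Nid2, Hspg2, Agrn, Fbn1, Fbn2, Lum, Postn and Tnc. By the textbook role of their product they fall into 11 fibrillar collagen genes, 6 collagen IV genes, 11 laminin genes, 4 genes of basement membrane linkers and proteoglycans, 4 genes of collagens that sit at the basement membrane, 23 genes of other collagens and 7 genes of interstitial and matricellular glycoproteins. The 25 genes of collagen IV, the laminins, the linkers and the basement membrane zone collagens are called the basement membrane genes below and were kept apart from the fibrillar ones. The cells came from C57BL/6 mice, and no treatment or engineered allele is named. They make up 2 libraries, 406 cells from adult mice at estrus and 263 cells from mice at P4, read here as postnatal day 4. Both were sorted with antibodies to Epcam, an epithelial surface protein, and CD45, a leukocyte protein, and sequenced with a droplet method that reads the 3′ end of transcripts. The labels do not say how many animals went into a library.

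A basement membrane is the thin sheet under an epithelium. Collagen IV and laminin each form a network in it, nidogens and perlecan tie the networks together, and epithelial cells are known to make many of its parts. Fibrillar collagens (types I, III and V) form the fibres of the connective tissue beyond that sheet and are made mainly by fibroblasts and smooth muscle cells. The oviduct lining itself holds multiciliated cells and secretory cells, over a stroma and a coat of smooth muscle.

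A level here is the number of unique molecular identifiers (UMI, each one captured transcript) of a gene per 10000 UMI of the group, summed over its cells. Ranges after a level are exact 95% Poisson intervals, and ranges after a ratio of levels are exact conditional 95% intervals. Both cover counting error only, because each age is 1 library and cells were not treated as replicates, so no p-value was computed. A gene counts as measured in a comparison when 1 or both sides show it in at least 10% of their cells, and as higher or lower when the fold, taken with 0.1 per 10000 added to both levels, was at least 2. UMI at the 3′ end are not scaled by gene length, so levels are compared between groups for 1 gene and not between genes.

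Depth differed, with a median of 3232 UMI per adult cell and 7585 per P4 cell. Epithelial markers were present in both libraries, at 37.4 per 10000 in adult cells and 32.1 in P4 cells over 7 genes, and Ptprc, which encodes CD45, was at 0 in both. Of the adult barcodes, 401 occur with both prefixes and were counted once; 0 barcodes were shared with the P4 table. Stromal fibroblast markers (16 genes) had 3.47 per 10000 in adult cells and 8.11 in P4 cells, smooth muscle markers (9 genes) had 10.0 in adult cells and 5.80 in P4 cells, and erythroid markers (5 genes) had 0.0436 in adult cells and 0.0217 in P4 cells. Of the stromal list, Dlk1 alone was at 0 in adult cells and no gene was at 0 in P4 cells. A stromal marker UMI was seen in 44.1% of adult cells and 97.0% of P4 cells.

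Of the 66 genes, 54 had a UMI in adult cells and 55 in P4 cells, and 7 had none in either (Col2a1, Col9a1, Col10a1, Col17a1, Col19a1, Col24a1 and Col28a1). A count of 0 allows a share of up to 0.739% of adult cells and 1.14% of P4 cells with a UMI. At least 10% of cells had a UMI of 6 members in the adult library and of 29 at P4. Among those 6 were Sparc, Fn1, Col1a1, Col1a2 and Col3a1.

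The first comparison asked how the matrix genes differ between adult and P4 epithelium. Matrix transcripts were scarcer in the adult library. All members together had 9.12 UMI per 10000 (8.63 to 9.64) in adult cells and 22.6 (21.9 to 23.3) in P4 cells, a ratio of 0.404 (0.379 to 0.430). Of 29 measured members, 19 were at least 2-fold lower in adult cells, 1 was higher and 9 lay within 2-fold. Over all 7283 measured genes, 10.4% were lower and 11.5% higher by the same rule. Of the 29, 23 met the 10% limit through the P4 cells alone and 6 on both sides, so the filter itself favours genes high at P4 and the counts of measured members describe them only. Over the 59 members with any UMI, without that filter, 48 had a lower level in adult cells and 11 a higher one, with a median log2 fold of -0.58; it was -1.15 over the 29 and -0.09 over all measured genes. With totals over all genes of each table in place of the shared genes, the median of all genes moved by 0.14 (log2), and 14 members were lower. The age of the mice, the library, the gene list of its table and its stromal UMI cannot be told apart in this design.

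**Figure D1:**
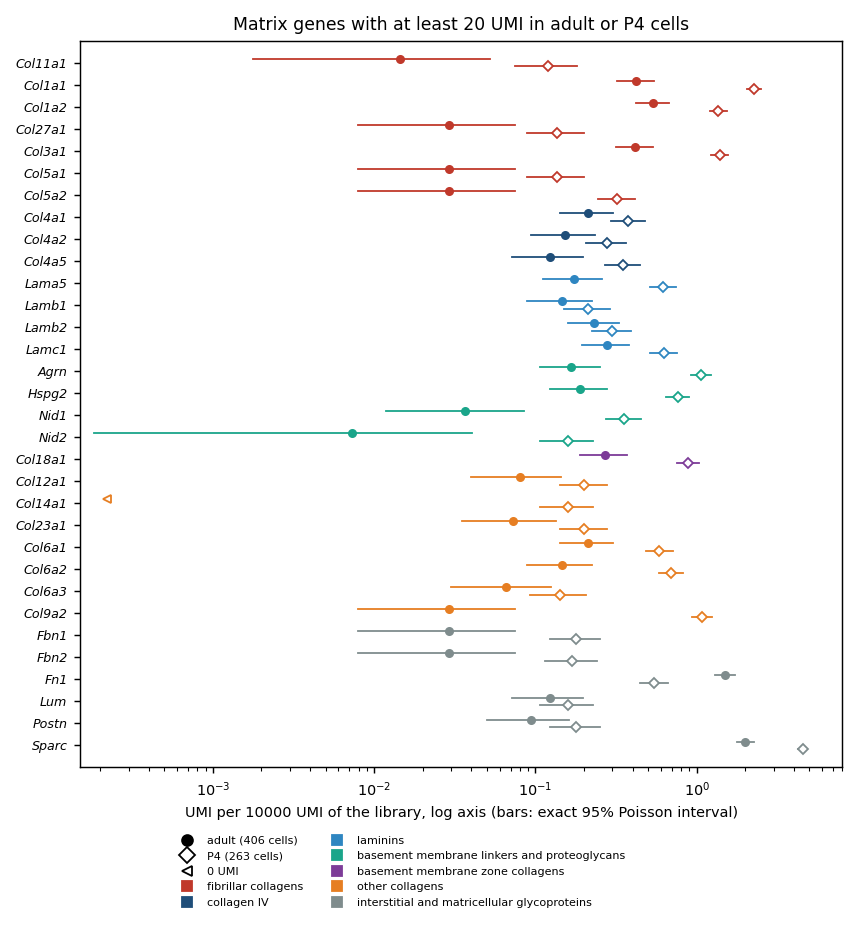
Levels (UMI per 10000 UMI, log axis) of the members reported here with at least 20 UMI in either library, with filled circles for adult cells and open diamonds for P4 cells, bars for the exact 95% Poisson interval and colours for the role of the product. Adult points lie left of P4 points for nearly every gene, while Fn1 has 1.50 in adult cells and 0.544 in P4 cells, and Col14a1 has 0 UMI in adult cells.

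The fibrillar collagen genes were lower in adult cells (4 of the 4 measured, of 11). Col1a1, the main chain of collagen I, had 0.421 per 10000 in adult cells and 2.27 in P4 cells, a ratio of 0.186 (0.139 to 0.245) and a log2 fold of -2.18. Its partner chain Col1a2 had 0.538 in adult cells and 1.36 in P4 cells (log2 fold -1.20), which became -1.81 without the 7 adult cells rich in smooth muscle transcripts. Col3a1, the chain of collagen III that is found with collagen I in soft tissues, had 0.414 in adult cells and 1.39 in P4 cells (log2 fold -1.53). Col5a2, a chain of the collagen V that starts such fibres, had 4 UMI in adult cells and 59 in P4 cells, a ratio of 0.0906 (0.0239 to 0.244). Summed over the 11 genes, fibrillar collagen had 1.51 per 10000 in adult cells and 5.74 in P4 cells, a ratio of 0.263 (0.226 to 0.306). The stromal marker sum stood in the same order (3.47 in adult cells, 8.11 in P4 cells) and the smooth muscle sum in the opposite one (10.0 in adult cells, 5.80 in P4 cells). Within the stromal list Dlk1 gave 517 of the 1492 UMI in P4 cells, while Mgp had 1.08 per 10000 in adult cells and 0.712 in P4 cells. The part of these cells in the result was not tested.

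The basement membrane genes stood in the same order, with 2.79 per 10000 in adult cells and 7.68 in P4 cells (ratio 0.363, 0.324 to 0.407). Of their 13 measured members, 8 were lower in adult cells and none was higher (0). The 4 linker and proteoglycan genes were all measured and all lower. Agrn encodes agrin, a heparan sulfate proteoglycan of basement membranes, and had 0.167 in adult cells and 1.06 in P4 cells (log2 fold -2.12). Hspg2, which encodes perlecan, had 0.189 in adult cells and 0.761 in P4 cells (log2 fold -1.58). For Nid1, the nidogen that bridges laminin and collagen IV, adult cells had 5 UMI and P4 cells 65, a ratio of 0.103 (0.0323 to 0.252). The related Nid2 had 1 UMI in adult cells and 29 in P4 cells (ratio 0.0461, 0.00113 to 0.278). Together the linkers had 0.400 per 10000 in adult cells and 2.33 in P4 cells, a ratio of 0.171 (0.127 to 0.227).

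Laminin chain genes differed in how far they lay apart. Lama5, the alpha chain of the laminins common under adult epithelia, had 0.174 in adult cells and 0.620 in P4 cells (log2 fold -1.39). Lamc1, the common gamma chain, lay just inside 2-fold with 0.276 in adult cells and 0.625 in P4 cells (log2 fold -0.95, ratio 0.442, 0.298 to 0.642). The beta chain genes Lamb1 and Lamb2 had log2 folds of -0.35 and -0.26, with intervals of the ratio that include 1. The 2 main collagen IV chains were within 2-fold. Col4a1 had 0.211 in adult cells and 0.375 in P4 cells (ratio 0.562, 0.351 to 0.878), and Col4a2 had 0.153 in adult cells and 0.277 in P4 cells (ratio 0.550, 0.314 to 0.931). Col4a5, a chain of the other collagen IV networks, was just past the threshold with 0.123 in adult cells and 0.348 in P4 cells (ratio 0.355, 0.195 to 0.613). Col18a1, whose protein can be cut to give endostatin, had 0.269 in adult cells and 0.886 in P4 cells (log2 fold -1.42).

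The sequence before the start of transcription differs widely among members that were lower in adult cells. The 4 stretches shown are of the basement membrane genes Agrn, Lama5 and Nid1, of which Nid1 stood in the opposite order to the other two in the P4 clusters described below, and of the fibrillar Col3a1. They come from RefSeq's promoter table for GRCm38.p6, which holds 47 of the 66 members, and each is the 150 bases before the listed start that overlap no annotated exon, read along the gene's strand. Capitals mark the letters GGGCGG (a core that Sp family factors bind), CCAAT and TATAAA, each searched on both strands.
Agrn (chr4:156197489-156197638, minus strand): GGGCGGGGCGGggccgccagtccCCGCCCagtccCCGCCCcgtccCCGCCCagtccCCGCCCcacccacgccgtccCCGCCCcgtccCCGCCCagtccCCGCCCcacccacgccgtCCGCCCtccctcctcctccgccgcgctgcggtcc
Lama5 (chr2:180225860-180226009, minus strand): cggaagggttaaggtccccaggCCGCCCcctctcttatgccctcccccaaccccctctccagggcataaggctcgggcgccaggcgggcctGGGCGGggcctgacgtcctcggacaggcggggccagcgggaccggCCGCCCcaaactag
Nid1 (chr13:13437401-13437550, plus strand, ending 52 bases before the start): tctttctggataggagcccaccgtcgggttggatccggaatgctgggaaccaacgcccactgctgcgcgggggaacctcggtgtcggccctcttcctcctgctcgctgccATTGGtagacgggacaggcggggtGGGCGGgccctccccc
Col3a1 (chr1:45311388-45311537, plus strand): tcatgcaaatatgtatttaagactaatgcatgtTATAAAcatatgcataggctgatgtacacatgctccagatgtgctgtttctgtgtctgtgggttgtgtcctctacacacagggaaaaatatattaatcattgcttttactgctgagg
The Agrn stretch holds 10 matches to GGGCGG, of which the first 2 share a base, the Lama5 stretch 3, the Nid1 stretch 1 and the Col3a1 stretch 0. Of 32851 promoter windows at the same place, 28.6% hold GGGCGG (22.1% at the place of the Nid1 window). TATAAA occurs once in the Col3a1 stretch and in 7.57% of windows, and CCAAT, on the other strand, once in the Nid1 stretch and in 23.4% of windows at its place. G and C make up 85.3% of the Agrn stretch, 73.3% of that of Lama5, 68.0% of that of Nid1 and 37.3% of that of Col3a1, which has no CpG (0, against 21 in the Agrn stretch). These letters describe the windows and do not show that a factor is bound. Col4a1 and Col4a2 lie head to head on chromosome 8, and in GENCODE M21 their first exons share 22 bases (11312805 to 11312826, GRCm38).

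Other collagens gave the largest fold in the comparison of ages. Col9a2, a chain of collagen IX best known from cartilage, had 4 UMI in adult cells and 199 in P4 cells, which is 0.0291 per 10000 in adult cells and 1.08 in P4 cells (log2 fold -3.19). A UMI of Col9a2 was seen in 0.739% of adult cells and 46.0% of P4 cells. Its gene lies on chromosome 4 (121039385 to 121055322, plus strand, GRCm38). Of its partner chains, Col9a3 had 1 UMI in each library and Col9a1 0. Col14a1, a collagen that binds the surface of fibres, had 0 UMI in adult cells and 29 in P4 cells, at least 7.23-fold lower in adult cells by a floor of 3 counts, with an exact interval of the ratio that reaches 0.181. The beaded filament collagens Col6a1 and Col6a2 were lower in adult cells, with log2 folds of -1.15 and -1.70. Col12a1 and Col23a1 lay within 2-fold (log2 folds -0.74 and -0.80).

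Fibronectin was the exception among the measured members. Fn1, which encodes the glycoprotein that cells grip through integrins, had 206 UMI in adult cells and 100 in P4 cells, or 1.50 per 10000 in adult cells and 0.544 in P4 cells (ratio 2.75, 2.16 to 3.53). Its gene lies on chromosome 1 (71585520 to 71653200, minus strand, GRCm38). The log2 fold was 1.31, but 0.90, under 2-fold, when each cell weighed the same. Of the 206 adult UMI, 155 lay in the authors' adult cluster 0 (3.08 per 10000), while adult cluster 1 had 0.361 per 10000. Sparc, which encodes a collagen-binding matricellular protein, had 276 UMI in adult cells and 835 in P4 cells, or 2.0 per 10000 in adult cells and 4.54 in P4 cells (log2 fold -1.14). It was seen in 25.9% of adult cells and 90.1% of P4 cells. With every cell thinned to 1000 UMI, which left out 88 adult cells and 0 P4 cells, these shares were 14.2% and 37.6%. For Col1a1 the thinned shares were 2.83% of adult cells and 17.1% of P4 cells, while for Fn1 they were 10.7% of adult cells and 4.56% of P4 cells. The microfibril genes Fbn1 and Fbn2 were lower in adult cells (4 UMI each in adult cells, 33 and 31 in P4 cells), and Lum and Postn lay within 2-fold.

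The second comparison set the adult secretory-like cells (the authors' clusters 0 and 4, 161 cells) against the multiciliated-like cells (clusters 1 and 3, 220 cells), whose median depths were alike at 3221 and 3194.5 UMI. Secretory markers (6 genes) had 92.5 per 10000 in the first class and 14.3 in the second, and multiciliated markers (8 genes) had 2.77 in the first and 129.2 in the second. The clusters were made from the same counts, so this describes them. Fn1 marked the secretory-like cells, with 2.91 per 10000 (2.48 to 3.39) there and 0.427 (0.288 to 0.610) in multiciliated-like cells. That is a 5.70-fold difference, and 44.7% of secretory-like cells and 10.5% of multiciliated-like cells had a UMI. Col18a1 was the other gene past the threshold, with 0.479 in secretory-like cells and 0.0997 in multiciliated-like cells, on 27 and 7 UMI (ratio 4.80, 2.04 to 13.1). It met the 10% limit through the secretory-like cells alone (14.3% of cells, against 2.73% of multiciliated-like cells). Of 8 measured members these 2 were higher and 0 were lower. Over all 5077 measured genes, 11.1% were higher and 24.5% lower.

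Sparc had 2.43 per 10000 in secretory-like cells and 1.24 in multiciliated-like cells (log2 fold 0.92), and the log2 fold was 2.08, past the threshold, when each cell weighed the same. Its 39.8% of secretory-like cells with a UMI stood against 14.5% of multiciliated-like cells. The linker genes summed to 0.603 in secretory-like cells and 0.171 in multiciliated-like cells, a ratio of 3.53 (1.78 to 7.48) that rests on 34 and 12 UMI. Agrn gave 16 of the 34 and 5 of the 12. Laminins were alike, at 1.54 in secretory-like cells and 1.40 in multiciliated-like cells (ratio 1.11, 0.818 to 1.49). The fibrillar genes pointed the other way, with 0.886 in secretory-like cells and 1.37 in multiciliated-like cells (ratio 0.648, 0.451 to 0.922). Collagen IV stood in the same order as the fibrillar genes, with 0.319 in secretory-like cells and 0.541 in multiciliated-like cells (ratio 0.590, 0.317 to 1.06), and Col4a2 had 2 UMI in secretory-like cells and 16 in multiciliated-like cells (ratio 0.156, 0.0174 to 0.662). The median log2 fold of all measured genes was -0.26 here, with 61.3% of them below 0, and that of the 3 measured fibrillar genes was -0.32. The share of cells with a fibrillar UMI was 24.2% for secretory-like cells and 30.0% for multiciliated-like cells. Stromal markers had 2.94 per 10000 in secretory-like cells and 2.98 in multiciliated-like cells, and smooth muscle markers had 3.94 in secretory-like cells and 4.07 in multiciliated-like cells. Single markers ran both ways between the largest clusters of the classes. Dcn had 1.19 in cluster 0 and 0.292 in cluster 1, and Mfap4 0.119 in cluster 0 and 1.17 in cluster 1. Among smooth muscle markers Myl9 had 1.98 and 0.688 in these clusters and Acta2 0.932 and 1.65.

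Clusters were also compared within each class, where the share of measured members past the threshold was near that of all genes. Between the secretory-like clusters 4 (31 cells) and 0 (130 cells), Sparc was higher in cluster 4, with 5.50 per 10000 there and 2.06 in cluster 0 (ratio 2.66, 1.74 to 3.98). Fn1 stood in the opposite order, at 1.50 in cluster 4 and 3.08 in cluster 0 (ratio 0.488, 0.219 to 0.950), just within 2-fold. For this pair 1 of 6 measured members was higher and 1 lower, where all measured genes had 8.97% higher and 20.9% lower. Cluster 4 was shallow, with a median of 1185 UMI per cell against 4107.5 in cluster 0.

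Between the multiciliated-like clusters 3 (37 cells) and 1 (183 cells), Lama5 had 0.579 per 10000 in cluster 3 and 0.138 in cluster 1, on 7 and 8 UMI (ratio 4.21, 1.30 to 13.3). It was the 1 higher of 10 measured members and 1 was lower, where 11.6% of all measured genes were higher and 9.15% lower. Lama5 met the 10% limit through cluster 3 alone, with a UMI in 18.9% of its cells and in 4.37% of those of cluster 1. Fibrillar genes summed to 2.23 in cluster 3 and 1.19 in cluster 1 (ratio 1.88, 1.16 to 2.98). In the authors' merged clustering, Fn1 had 3.02 per 10000 in the adult cells of merged cluster 2 and 0.449 in those of merged cluster 4. Those groups hold 98 and 85 adult cells, with median depths of 5101 and 1177 UMI. Merged cluster 2 is not limited to secretory-like cells, since Col1a2 had 36 UMI in its adult cells and 12 in all secretory-like cells.

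**Figure D2:**
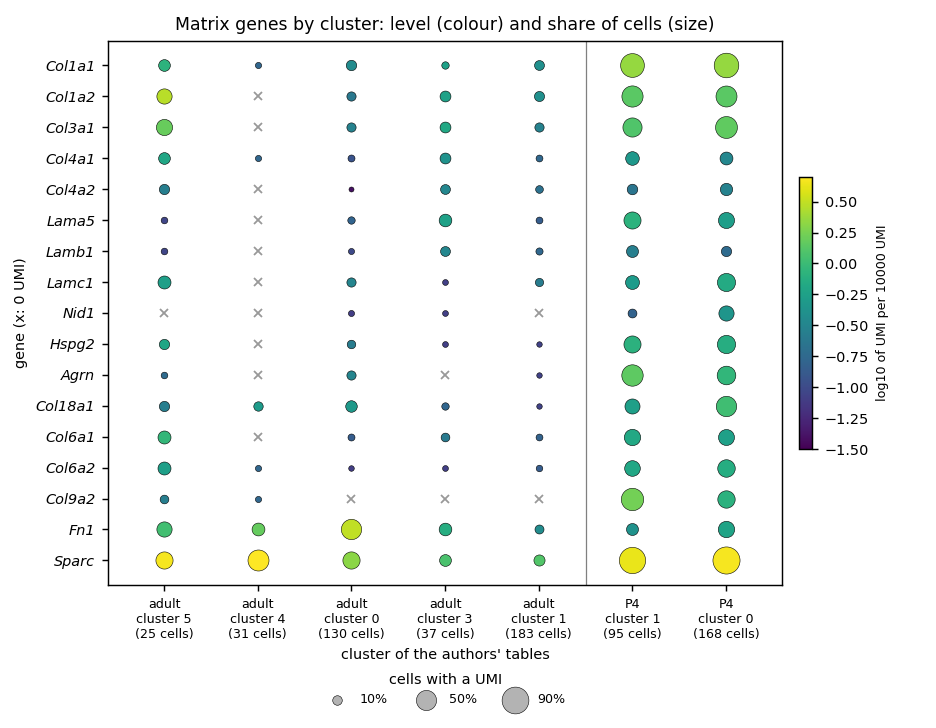
Level (colour, log10 of UMI per 10000 UMI) and share of cells with a UMI (size) of 17 members in the authors' clusters, adult clusters left of the line and P4 clusters right of it, with a cross for 0 UMI. Fn1 is brightest in adult cluster 0 (3.08), the fibrillar genes among adult clusters in cluster 5, and Col9a2 in the P4 clusters (1.70 in cluster 1 and 0.800 in cluster 0).

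Adult cluster 5 (25 cells) stood apart. Of 19 measured members 13 were higher there than in the other adult clusters and 0 were lower, where 11.9% of all measured genes were higher and 14.6% lower. Of those 13, all but Sparc met the 10% limit through cluster 5 alone, so the filter favours genes high there. Fibrillar genes summed to 5.62 per 10000 in cluster 5 and 1.15 in the other adult clusters (ratio 4.88, 3.56 to 6.61). Col1a2 had 2.90 in cluster 5 and 0.332 in the others, and Col3a1 had 1.54 in cluster 5 and 0.316 in the others. Postn, which encodes the matricellular protein periostin, had 0.725 in cluster 5 and 0.0395 in the others. Sparc had 4.71 in cluster 5 and 1.77 in the others, while Fn1 had 1.09 in cluster 5 and 1.53 in the others. Smooth muscle markers, at 78.9 per 10000 in the cluster, came from few cells: 7 of the 25 had at least 10 such UMI. Stromal markers moved with the same cells, at 9.34 per 10000 in cluster 5 and 2.96 in the other adult clusters, and the 7 cells held 96 of the 103 stromal marker UMI of the cluster, mostly of Mgp (39) and Igf1 (27). Those 7 cells held 32 of the 32 UMI of Col1a2, 9 of the 9 of Col1a1, 14 of the 17 of Col3a1 and 49 of the 52 of Sparc. In them the fibrillar genes had 10.2 per 10000, and in the other 18 cells of the cluster 0.750 (0.204 to 1.92). The median depth was 7757 UMI in the 7 cells and 1914.5 in the other 18. The 7 cells also held all 19 collagen IV UMI of the cluster. Without them the whole adult library had 1.14 fibrillar UMI per 10000 and 2.56 of basement membrane genes, and 22 members were at least 2-fold lower than at P4.

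The third comparison set P4 cluster 1 (95 cells) against P4 cluster 0 (168 cells), with median depths of 7029 and 7856 UMI. Matrix genes were alike in total, at 23.0 per 10000 in cluster 1 and 22.4 in cluster 0 (ratio 1.03, 0.960 to 1.10). Of 30 measured members 0 were higher and 1 was lower in cluster 1, where 1.74% of all 7625 measured genes were higher and 1.91% lower. The lower one was Nid1, with 9 UMI in cluster 1 and 56 in cluster 0. Its level was 0.156 per 10000 in cluster 1 and 0.443 in cluster 0 (log2 fold -1.09, ratio 0.352, 0.153 to 0.717). Nid1 met the limit on the share of cells through cluster 0 alone, with a UMI in 28.0% of its cells and in 8.42% of those of cluster 1. The filter thus favours a gene that is high in cluster 0. Col9a2 was at the edge of the threshold, with 1.70 in cluster 1 and 0.800 in cluster 0 (ratio 2.12, 1.59 to 2.83). A UMI of Col9a2 was seen in 62.1% of cells of cluster 1 and 36.9% of cells of cluster 0.

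Smaller differences ran both ways among the basement membrane genes. Agrn had 1.42 per 10000 in cluster 1 and 0.895 in cluster 0 (ratio 1.59, 1.18 to 2.13). Lama5 had 0.815 in cluster 1 and 0.531 in cluster 0 (ratio 1.54, 1.03 to 2.26). Col18a1 had 0.538 in cluster 1 and 1.05 in cluster 0 (ratio 0.514, 0.336 to 0.765). The laminin chain Lamc1, the perlecan gene Hspg2, Lamb1, Col4a1 and Col4a2 all had intervals of the ratio that include 1. Among other collagens Col23a1, a membrane-spanning collagen, had 0.347 in cluster 1 and 0.135 in cluster 0, on 20 and 17 UMI (ratio 2.58, 1.28 to 5.24; log2 fold 0.93).

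The fibrillar genes differed by less than counting error between the P4 clusters. Their sum was 5.70 per 10000 in cluster 1 and 5.76 in cluster 0, a ratio of 0.991 (0.867 to 1.13). Col1a1 had 2.25 in cluster 1 and 2.27 in cluster 0, and Col1a2 had 1.37 in cluster 1 and 1.36 in cluster 0. Sparc had 4.25 in cluster 1 and 4.67 in cluster 0 (ratio 0.909, 0.780 to 1.06). Stromal markers had 8.03 in cluster 1 and 8.15 in cluster 0, and smooth muscle markers had 4.94 (4.38 to 5.55) in cluster 1 and 6.19 (5.77 to 6.64) in cluster 0.

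**Figure D3:**
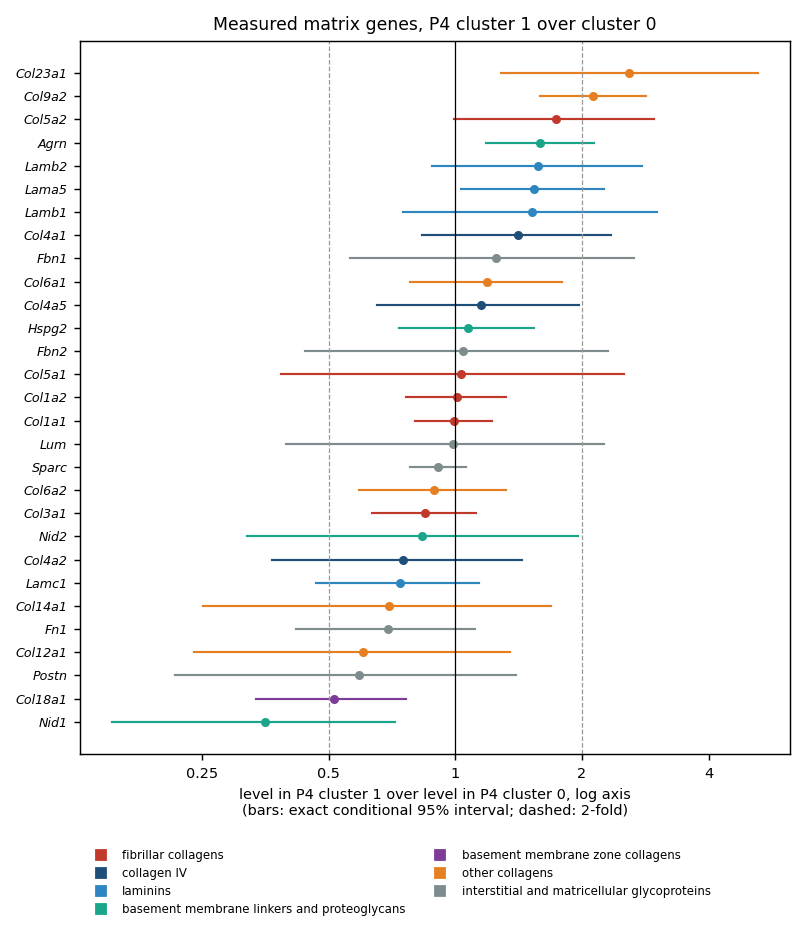
Ratio of the level in P4 cluster 1 to that in P4 cluster 0 (log axis) for 29 of the 30 measured members, with exact conditional 95% intervals as bars, dashed lines at 2-fold and colours for the role of the product. Nid1 (0.352) and Col18a1 (0.514) lie lowest and Col23a1 (2.58) and Col9a2 (2.12) highest, and the fibrillar genes Col1a1 and Col1a2 lie at 1.

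The P4 cells split differently in the merged clustering, a comparison added after the data were seen. There 14 P4 cells fell in merged cluster 0, in which 8 of them had multiciliated markers (62.1 per 10000 over the cells, against 2.31 in the 225 P4 cells of merged cluster 1). Col9a2 and several basement membrane genes were scarcer in the 14 cells. Col9a2 had 1 UMI in the cells of merged cluster 0 and 189 in those of merged cluster 1 (ratio 0.0815, 0.00205 to 0.459), and Col4a1 had 0 in merged cluster 0 and 61 in merged cluster 1. The basement membrane genes together had 4.39 in merged cluster 0 and 7.80 in merged cluster 1 (ratio 0.563, 0.410 to 0.755). For the fibrillar genes the levels were 4.67 in merged cluster 0 and 5.78 in merged cluster 1, with an interval of the ratio (0.593 to 1.08) that includes 1. Stromal markers had 7.34 in merged cluster 0 and 8.04 in merged cluster 1. Of 31 measured members 10 were lower in merged cluster 0, 9 of them on 2 UMI or fewer there, and 0 were higher, where 12.4% of all measured genes were lower and 17.0% higher. Most of those 10 met the 10% limit through the cells of merged cluster 1 alone, so the filter favours genes high there. The median depth was 4511.5 UMI in the 14 cells and 7767 in the 225.

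**Figure D4:**
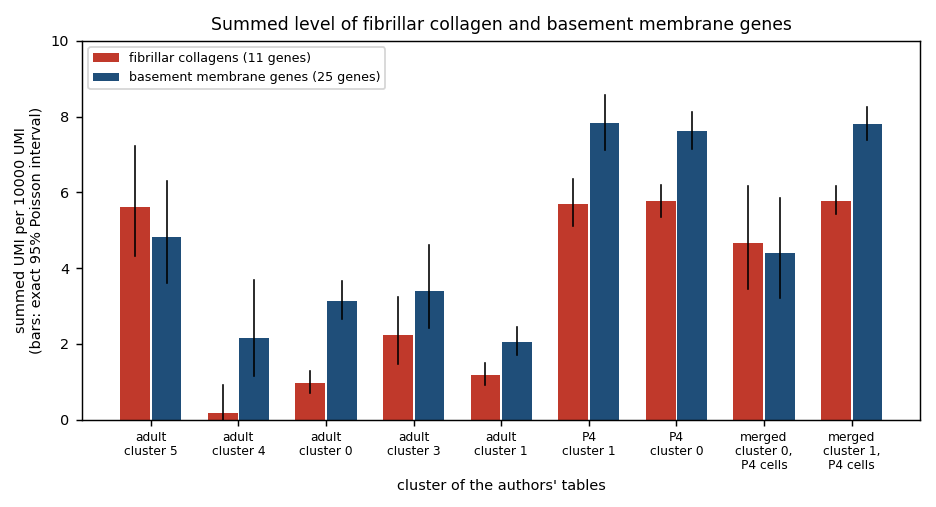
Summed level (UMI per 10000 UMI) of the 11 fibrillar collagen genes and the 25 basement membrane genes in each cluster, with exact 95% Poisson intervals as black lines. Fibrillar genes have 5.70 and 5.76 in P4 clusters 1 and 0 and 4.67 in the P4 cells of merged cluster 0, while basement membrane genes have 4.39 in the last and 7.80 in the P4 cells of merged cluster 1.

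To describe what free RNA could leave in these counts, the spread of each gene over cells was compared with the share of cells that would have a UMI if its UMI fell on cells in proportion to their depth. In P4 cells the fibrillar genes lay at or near that share: Col1a1 was seen in 73.8% of cells against 74.2% by depth alone, Col3a1 in 54.4% against 58.3% and Col5a2 in 17.5% against 19.6%. Basement membrane genes lay as near, with Hspg2 at 39.2% against 39.5% and Agrn at 47.9% against 49.6%, and Sparc had 90.1% against 90.8%. The epithelial markers spanned a like range, with Krt18 at 97.3% against 98.9% and Epcam at 86.3% against 93.3%, so the measure does not set the fibrillar genes apart at P4. In adult cells the gap ran from none to wide. Lama5 was seen in 5.67% of adult cells against 5.65% by depth alone and Col4a2 in 4.93% against 4.97%, while Epcam had 61.6% against 69.6% and Krt18 79.6% against 90.2%. The most abundant members lay further below: Sparc was seen in 25.9% of adult cells against 43.6%, Fn1 in 25.1% against 35.9% and Col1a2 in 11.1% against 15.9%. Some scarcer basement membrane genes also lay below in adult cells, with Agrn at 4.19% against 5.42% and Hspg2 at 4.43% against 6.09%. The 5 cells richest in Col1a2 held 39.2% of its adult UMI and 11.2% of its P4 UMI. Such a share is higher by construction for fewer UMI, and Col1a2 had 74 in adult cells and 251 in P4 cells. It was not particular to fibrillar genes: in adult cells it was 47.8% for Agrn, 46.2% for Hspg2 and 28.6% for Col4a2.

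**Figure D5:**
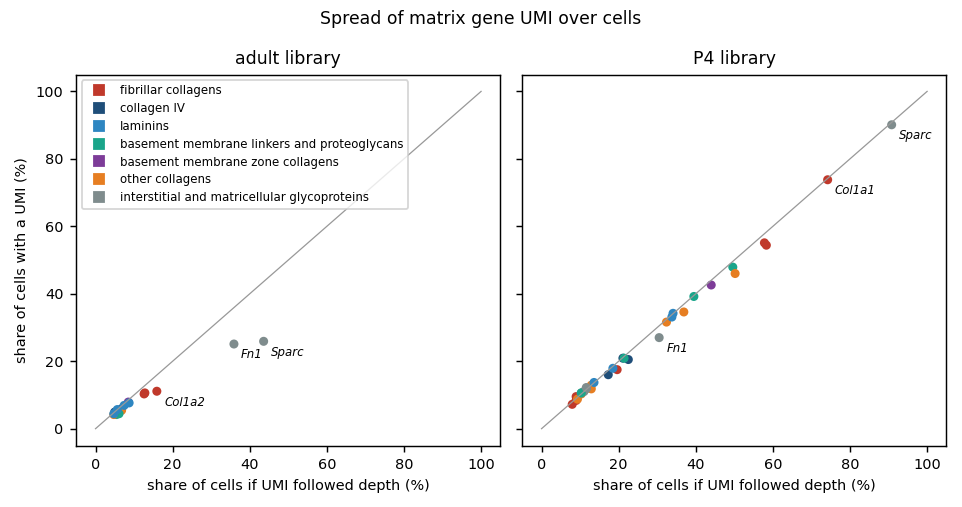
Share of cells with a UMI against the share if UMI followed depth alone (both in %), for the members reported here with at least 20 UMI in the adult library (left) and the P4 library (right); each point is a gene, coloured by role, and the grey line marks equal shares. P4 points lie close to the line, with Sparc at 90.1% against 90.8%, and adult Sparc (25.9% against 43.6%) and Fn1 (25.1% against 35.9%) lie below it.

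Cells were also grouped by how many stromal markers they showed, groups whose median depth rose with that number. In adult cells with no stromal marker UMI (227 cells) the fibrillar genes had 0.791 per 10000 (0.579 to 1.06). In those with 1 such marker (126 cells) the fibrillar genes had 1.08 (0.803 to 1.42), an interval that overlaps the first. In those with 2 or more (53 cells) the level was 3.44 (2.83 to 4.15). The same groups of P4 cells had 6.04 (8 cells), 5.34 (29 cells) and 5.76 (226 cells). The adult groups include the 7 cells of cluster 5 with at least 10 smooth muscle UMI. Those 7 cells held 55 of the 189 adult UMI of Col1a1, Col1a2 and Col3a1. Their part in the differences between the adult groups was not tested. In adult cells the basement membrane genes had 2.41, 2.37 and 4.10 in these groups, so they were present at about the same level with no stromal marker as with 1. In P4 cells they had 9.06, 6.91 and 7.71, with intervals that overlap, as those of the fibrillar genes did. Of the UMI of Col1a1, Col1a2 and Col3a1 together, Col1a1 took 30.7% (24.2 to 37.8) in adult cells and 45.2% (41.9 to 48.5) in P4 cells. The adult share was 36.6% (28.4 to 45.3) without the 7 cells rich in smooth muscle transcripts. What part of the fibrillar counts is free RNA was not tested, since no empty droplets were analysed here.

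The genes that act on the matrix were compared between ages from lists chosen by function. The counts that follow stand beside the 10.4% of all measured genes that were lower in adult cells and the 11.5% that were higher. Of 16 measured collagen processing genes, 4 were lower in adult cells and 1 was higher. The lower ones were P3h3, P3h4 and Crtap, of the machinery that modifies prolines and lysines of collagen, and Bmp1, which trims procollagen. P3h4 for example had 0.145 in adult cells and 0.468 in P4 cells (log2 fold -1.21). The cross-linking enzyme gene Tgm2 was higher, with 0.567 in adult cells and 0.217 in P4 cells (log2 fold 1.07). Serpinh1, the collagen chaperone HSP47, lay just within 2-fold with 1.41 in adult cells and 2.72 in P4 cells (log2 fold -0.90). The median log2 fold of this list was -0.48.

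Of 14 measured receptor genes, 3 were higher in adult cells and 1 was lower, and 10 lay within 2-fold, with a median log2 fold of -0.12 that is near the -0.09 of all measured genes. Ddr1, a collagen receptor kinase of epithelia, had 1.79 in adult cells and 0.506 in P4 cells (log2 fold 1.65), and Itgav and Sdc1 had log2 folds of 1.07 and 1.24. Sdc4, a syndecan, had 3.25 in adult cells and 9.86 in P4 cells (log2 fold -1.57). The laminin receptor genes Itga6, Itgb4 and Dag1 had log2 folds of -0.20, -0.26 and -0.17. Among 7 measured proteases, Mmp14, Adamts1 and Adam15 were lower in adult cells (log2 folds -1.03, -1.10 and -1.08) and 0 were higher.

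Of 20 other matrix genes measured, 6 were lower in adult cells and 2 higher. The lower ones included Tgfbi, which encodes an adhesive matrix protein and had 0.276 in adult cells and 2.29 in P4 cells (log2 fold -2.67), and the elastic fibre genes Mfap2 (log2 fold -2.70) and Eln (-2.06). Dcn, Fbln1 and Mfap5, of which Dcn and Mfap5 are also in the stromal marker list, had log2 folds of -1.16, -1.17 and -1.17. Spp1, which encodes osteopontin, had 461 UMI in adult cells and 2 in P4 cells (ratio interval 84.8 to 2550.9). Aebp1 had 1.72 in adult cells and 0.620 in P4 cells (log2 fold 1.34).

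In the adult clusters Spp1 and Aebp1 were lower in secretory-like than in multiciliated-like cells (log2 folds -2.18 and -2.57), as were Mfap4 (-2.43), Thbs1 (-1.27), Pcolce (-2.18), Itga3 (-1.23) and Sdc1 (-1.02). The hyaluronan receptor gene Cd44 was higher, with 0.833 in secretory-like cells and 0.128 in multiciliated-like cells (log2 fold 2.03), as were Mmp23 (1.66), Dcn (1.44), Ppib (1.44) and Tgm2 (1.38). In P4 cluster 1, compared with P4 cluster 0, Mmp23 and Adamts1 were lower (log2 folds -1.02 and -1.08) and Fbln1 and Egflam higher (1.06 and 1.09).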

How the data were processed

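Single-cell RNA of sorted oviduct epithelium was measured in 2 libraries, adult at estrus and P4, made with Chromium 3′ V2 chemistry per the labels. Tools named in the submitters' processing notes are Seurat 2.3.4 and Cell Ranger, with mm10 as the build and no role given to each. The authors deposited raw counts of UMI per gene and cell, not normalized, for the adult, P4 and merged cells, and cluster numbers per cell; whether counting used strand is not given in the sources used here.

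The adult table lists 27998 genes and that of P4 53573; totals were taken over the 26897 in both, which left out 1.79% of adult and 13.4% of P4 UMI. Of 807 adult columns 406 barcodes are distinct. No doublets were called and no cells were removed. Library totals over all genes were 1401641 UMI (adult) and 2123202 (P4). Levels, folds and intervals were computed with SciPy 1.17.1 and tested on simulated data. Where a side had 0 counts, the bound uses a floor of 3 counts over the group. Gene positions are from GENCODE M21 (GRCm38), in which exons of Col3a1, Fn1, Nid1, Nid2, Fbn1, Fbn2, Col5a1 and Col4a1 with Col4a2 overlap another gene, so their reads may not be separable.

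Named genes are 15 fixed members, the 15 members with the most UMI in each library, and members or listed genes at least 2-fold different with 20 UMI on the higher side; values for other genes named were chosen after they were seen. 1 member is not reported here by name; counts and sums include it. The members and lists were chosen with earlier results of these data known. Comparisons were repeated with other pooling, pseudocounts, filters, depths, tables and cells.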

Additional observations from a re-analysis of the deposited data

How the results depend on the processing

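With 1 library per age (406 adult and 263 P4 cells), counts of few UMI limit most members; cells are not replicates, so no setting supplies a test. No paired analysis was possible because each age has 1 library. For adult over P4 (19 members lower, 1 higher), a pseudocount of 0.5 gave 5 lower and 0 higher, a filter of 25% of cells 12 lower, thinning to 1000 UMI 6 lower of 7 measured, a mean over cells 0 higher, and no filter 2 higher. The other settings gave 14 to 22 lower. For adult secretory-like over multiciliated-like cells (2 higher, 0 lower), a pseudocount of 0.5 and a filter of 25% each left 1 higher, and no filter gave 4 higher and 2 lower. A mean over cells and the second prefix for repeated barcodes each gave 3 higher. Leaving out the 10% of cells richest in stromal and smooth muscle markers also gave 3 higher. The same held without the 5% of cells with the most UMI and without the 5 richest cells of each gene. For P4 cluster 1 over cluster 0 (0 higher, 1 lower), a mean over cells gave 1 higher and 2 lower, thinning 2 higher, leaving out the 10% of cells richest in stromal and smooth muscle markers 1 higher, a pseudocount of 0.5 left 0 lower, and leaving out the 5 richest cells of each gene gave 2 lower. A larger pseudocount lowers every fold by its construction, and filters and thinning change how many genes are measured; the cause of the other shifts was not tested. Of the log2 folds of named members, 301 of 325 values for adult over P4, 72 of 80 for the adult classes and 165 of 171 for the P4 clusters stayed within the counting interval of the reported value, and 0 called folds changed sign. Leaving out the 7 cells rich in smooth muscle transcripts, a setting chosen after seeing the data, gave 22 lower.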

Other observations

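A pair of low-count collagens differed between adult cell classes. They fall outside the rule for named genes and were chosen after their values were seen. Col25a1, which encodes a membrane-spanning collagen, had 14 UMI in adult secretory-like cells and 2 in multiciliated-like cells (ratio 8.71, 2.0 to 79.0). It had 18 UMI in the adult library and 0 at P4, at least 8.02-fold higher in adult cells by a floor of 3 counts, with an exact interval of the ratio that starts at 5.87. Col8a2, a short-chain collagen, had 0 UMI in secretory-like cells and 15 in multiciliated-like cells, at least 4.02-fold lower in the secretory-like ones by the same floor, with an exact interval of the ratio that reaches 0.347. Col8a2 had 17 UMI in the adult library and 6 at P4 (ratio 3.79, 1.42 to 11.7). In the adult cells of the merged clusters, 16 of the Col25a1 UMI lay in merged cluster 2 and 12 of the Col8a2 UMI in merged cluster 0.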
